A study of Mus musculus with 8 samples.

Results

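Tetraspanin RNA was compared between YFP+ and YFP- stromal cells of the mouse small intestine. The genes described are 10 tetraspanins (Cd81, Cd9, Cd63, Cd82, Cd151, Tspan2, Tspan3, Tspan4, Tspan9 and Tspan11), taken by symbol from the 53801 genes of the authors' deposited count table. The family was chosen by the CPM of Cd81, which differed between the fractions, so every YFP+ against YFP- value of these 10 genes is a description. How many of them passed the test run over all genes is given once, as a count that supports nothing about them. The remaining 21 genes of the tetraspanin family in the table are not among these 10. They and the other lists below were drawn up with earlier results of these data known, so their counts are not independent evidence.

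Both fractions were sorted by flow cytometry from mice labelled LTβR-YFP, LTβR being the receptor for lymphotoxin. Blood cells (CD45+) and endothelial cells (CD31+) had been gated out of both, and the YFP signal separated them. There were 4 RNA libraries of YFP+ cells and 4 of YFP- cells, with 23404630 to 29829232 counts per YFP+ library and 23272858 to 28688906 per YFP- library. How YFP is driven, the age and strain of the mice, and whether libraries came from separate mice are not stated in the labels, so the errors below measure only the spread between these libraries, which may be technical. The sample titles give the opposite YFP sign to the descriptions, the genotypes and the names of the count columns in all 8 libraries. The descriptions were followed, and with the titles instead, every direction below would be the opposite.

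Tetraspanins are small membrane-spanning proteins with a short and a long extracellular loop. They bind each other and bind partner proteins such as integrins, immunoglobulin-family proteins and metalloproteases, and gather them into patches of membrane. Several of them are carried on released vesicles. In the intestine, CD81 protein is used to sort fibroblasts that lie beneath the crypt base and supply Wnt agonists and BMP antagonists to the epithelium.

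All 10 genes had RNA in all 8 libraries. Per kilobase of merged exon, which allows genes of unlike length to be set side by side, Cd63 was the most abundant member. CD63 protein is found in late endosomes and lysosomes. Its level was 35.8 ± 1.86 CPM per kilobase in YFP+ (CPM being counts per 1000000 of the scaled library total) and 32.7 ± 1.33 in YFP- (n = 4 libraries each, SD). Tspan9, known from platelets, and Cd9, known in mice for its part in sperm-egg fusion, came next in both fractions. Tspan9 stood at 31.4 ± 1.42 CPM per kilobase in YFP+ and 31.5 ± 2.36 in YFP-, and Cd9 at 27.5 ± 3.48 in YFP+ and 28.5 ± 2.72 in YFP-. Tspan11 and Tspan2 were the 2 least abundant members in every library. Tspan2 had 1.59 ± 0.447 CPM per kilobase in YFP+ and 1.02 ± 0.357 in YFP-.

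Cd82 and Cd81 changed places in this order. In YFP+ Cd82 was at rank 4 with 22.9 ± 1.94 CPM per kilobase and Cd81 at rank 7 with 13.4 ± 1.69, while in YFP- Cd82 was at rank 7 with 14.9 ± 1.79 and Cd81 at rank 4 with 26.1 ± 1.46 (n = 4 libraries each, SD). Single libraries ranged from rank 6 to 7 for Cd81 in YFP+ and from rank 3 to 4 in YFP-. For Cd82 they ranged from rank 3 to 4 in YFP+ and from rank 5 to 7 in YFP-. Several neighbours in the order had ranges of mean ± SD that overlapped. In YFP+ these were Tspan9 with Cd9, Cd9 with Cd82, Tspan3 with Cd151, and Cd151 with Cd81. In YFP- they were Cd63 with Tspan9, Tspan9 with Cd9, Cd9 with Cd81, Tspan3 with Cd151, Cd151 with Cd82, and Cd82 with Tspan4.

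**Figure D1:**
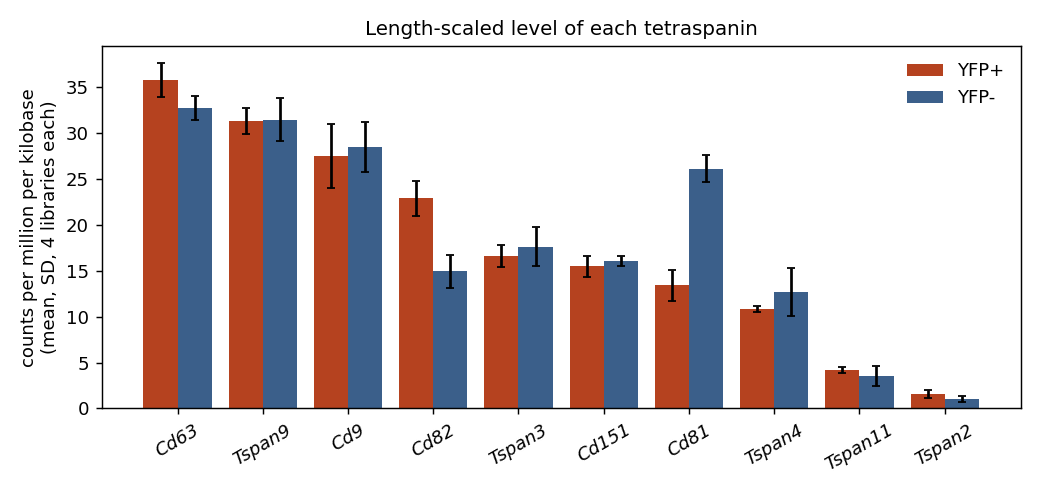
Level of each of the 10 tetraspanins in CPM per kilobase of merged exon, as the mean of 4 YFP+ libraries and 4 YFP- libraries, with bars for the SD. Cd81 is at 13.4 in YFP+ against 26.1 in YFP-, Cd82 at 22.9 in YFP+ against 14.9 in YFP-, and Tspan2, the lowest member, at 1.59 in YFP+ against 1.02 in YFP-.

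In human liver, CD81 protein serves as an entry receptor for hepatitis C virus. Cd81 RNA stood at 36.6, 45.9, 36.1 and 36.0 CPM in YFP+ replicates 1 to 4, against 76.8, 80.1, 70.3 and 73.6 CPM in YFP- replicates 1 to 4. Every YFP+ library was below every YFP- library, and YFP+ replicate 2 was the highest of its group. The means were 38.6 ± 4.85 CPM for YFP+ cells and 75.2 ± 4.21 for YFP- cells (n = 4 libraries each, SD), or -0.97 as a log2 ratio (SE 0.07, 95% interval -1.12 to -0.81). Libraries with the same replicate number were treated as pairs, and the log2 ratio within pairs ran from -1.07 to -0.80. These levels rested on 983 to 2031 counts per library. In sorted bulk RNA, fewer cells with the transcript and less transcript per cell cannot be told apart.

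Cd82, known in human prostate cancer as a suppressor of metastasis, went the other way. It stood at 73.9, 60.4, 70.3 and 70.4 CPM in YFP+, against 47.4, 37.2, 45.7 and 49.4 CPM in YFP-. The groups did not overlap, and replicate 2 was the lowest library of each group. As a log2 ratio this was 0.62 (SE 0.07, 95% interval 0.47 to 0.77), positive in 4 of 4 pairs, from 0.51 to 0.70. The ratio of Cd81 to Cd82 in CPM was 0.495, 0.761, 0.514 and 0.512 in YFP+, against 1.62, 2.15, 1.54 and 1.49 in YFP-. Cd82 thus had more counts than Cd81 in every YFP+ library and fewer in every YFP- library.

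The summed RNA of the 10 genes differed little between the fractions. It was 611 to 634.5 CPM in YFP+ and 605.5 to 642 CPM in YFP-, and the ranges overlapped. Cd81 made up 6.26% ± 0.826 of that sum in YFP+ and 12.02% ± 0.749 in YFP-. Cd82 made up 11.1% ± 0.944 in YFP+ and 7.19% ± 1.01 in YFP- (n = 4 libraries each, SD). The 10 genes held 77.3% ± 1.28 of the CPM of the whole family in YFP+ and 77.4% ± 0.707 in YFP-.

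**Figure D2:**
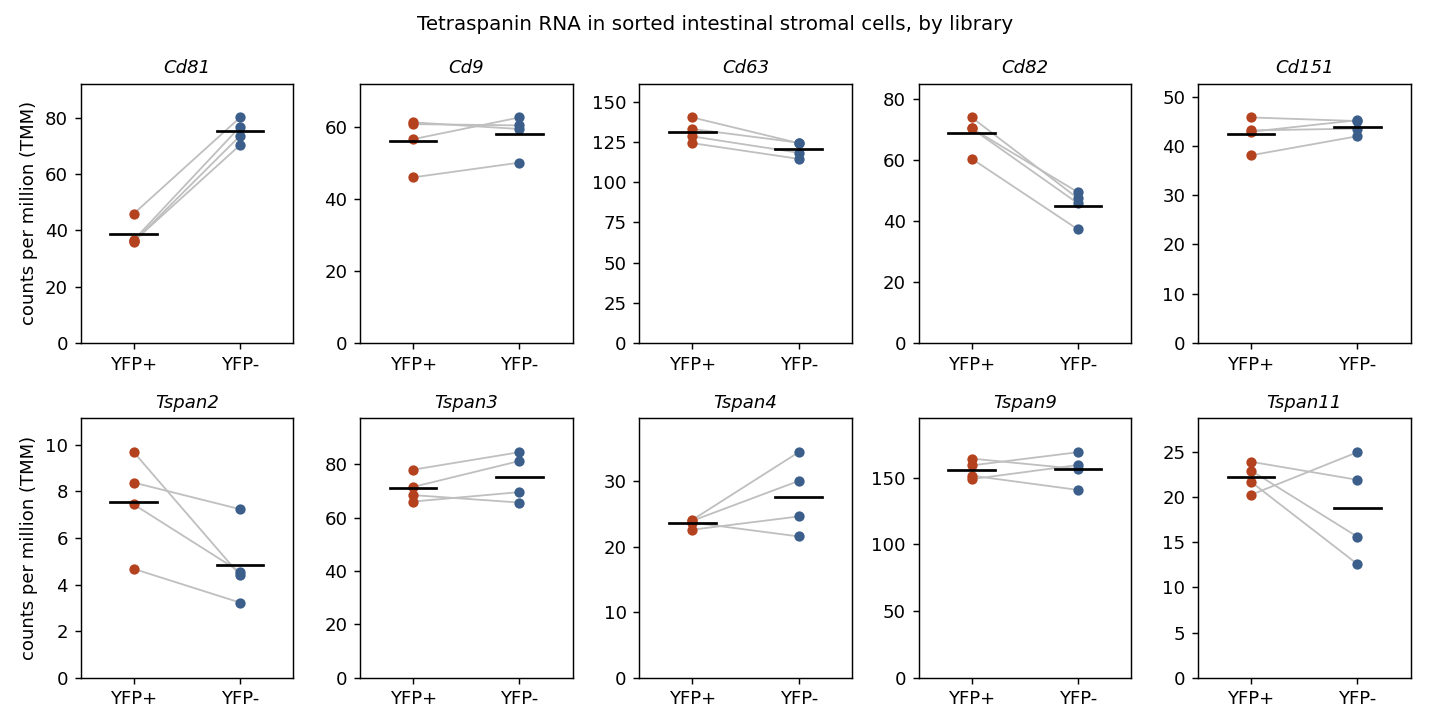
CPM of each of the 10 tetraspanins in every library, YFP+ on the left and YFP- on the right of each panel, with the axis from 0. Points are libraries, grey lines join libraries of the same replicate number and black bars are means. The points of the fractions do not overlap for Cd81 and Cd82 and overlap for the other 8 genes.

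Tspan2, which is known from the myelin-forming glia of the brain, was higher in YFP+ but scattered. It stood at 7.44, 8.38, 9.68 and 4.67 CPM in YFP+, against 4.55, 7.24, 4.40 and 3.22 CPM in YFP-. The groups overlapped, while each YFP+ library was above the YFP- library of its own number. As a log2 ratio this was 0.65 (SE 0.21, 95% interval 0.21 to 1.08). With 89 to 296 counts per library it was the least deeply counted member.

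Cd63 was at 129, 124, 140 and 133 CPM in YFP+, against 118, 115, 124 and 125 CPM in YFP-. It was slightly higher in YFP+ in 4 of 4 pairs, with a log2 fold change of 0.13 (SE 0.06). Tspan4, known for its place in the trailing vesicles called migrasomes, was even across YFP+ and uneven across YFP-. It had 22.6, 23.7, 24.0 and 24.1 CPM in YFP+, against 24.6, 21.6, 30.1 and 34.5 CPM in YFP-. Its log2 fold change was -0.21 with a 95% interval from -0.44 to 0.02. Tspan11 showed the same contrast in spread, with 21.7, 20.2, 22.9 and 23.9 CPM in YFP+, against 12.6, 25.0, 15.6 and 21.9 CPM in YFP-. Its coefficient of variation was 7.15% in YFP+ and 30.2% in YFP-, and its log2 fold change was 0.28 with a 95% interval from -0.02 to 0.59.

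The other 4 members lay close to 0. Cd9 had a log2 fold change of -0.05 (95% interval -0.20 to 0.10). Cd151, which binds laminin-binding integrins, also had -0.05 (-0.22 to 0.12). Tspan3 had -0.08 (-0.22 to 0.06) and Tspan9 -0.00 (-0.12 to 0.12). These intervals are not adjusted for the number of genes and reach no further than 0.22 from 0 on the log2 scale, which bounds a difference without showing that there is none.

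With edgeR's quasi-likelihood F test, blocked on replicate number, at an adjusted p under 0.05 over all 16354 genes tested, 3 of the 10 members passed, where 11.5% of all tested genes did. Those 3 were Cd81, lower, and Cd82 and Tspan2, higher. Without the block 2 members passed, where 4.26% of all tested genes did, and Tspan2 was the one lost. Tspan2 was also lost with DESeq2 and without the pair numbered 1, 3 or 4. Tspan11 passed when the pair numbered 2 was left out, with a log2 fold change of 0.49. Of the 10 members, 2 had groups that did not overlap, where the groups of 9.64% of all tested genes did not. The median log2 fold change of the 10 was -0.03, beside 0.01 over all genes tested. Since Cd81 chose the family, nothing is read from these counts.

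Some of the 10 genes lie close to each other on GRCm38. Cd81 (ENSMUSG00000037706) is on chromosome 7 from 143052739 to 143067934 on the plus strand, within the imprinted Kcnq1 region, and Tspan32 is 33.1 kb away. Cd151 and Tspan4 lie 3.8 kb apart on the same chromosome. Tspan9 and Tspan11 lie 7.4 kb apart on chromosome 6, where Cd9 is 146.4 kb from Ltbr, the gene of the lymphotoxin beta receptor. Cd82 (ENSMUSG00000027215) lies on the minus strand of chromosome 2, from 93419111 to 93463140, and 84.6 kb from Tspan18. Cd151 and Tspan4 had log2 fold changes of -0.05 and -0.21, Tspan9 and Tspan11 -0.00 and 0.28, and Tspan18 0.07. Ltbr itself was at 55.3 to 58.1 CPM in YFP+ and 42.4 to 57.0 CPM in YFP-, with a log2 fold change of 0.12 (adjusted p by edgeR 0.396), so it gives no check of the labels.

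Of the 4 nearest protein-coding genes on each side of Cd81, Tspan32, Tssc4, Kcnq1 and Cdkn1c were tested. They had log2 fold changes of -0.63, -0.22, -0.62 and -0.32 and did not pass, with edgeR adjusted p of 0.716, 0.623, 0.218 and 0.174. Before adjustment the edgeR p was 0.0497 for Kcnq1 and 0.0347 for Cdkn1c. The SE was 0.82 for Tspan32, on 0 to 25 counts per library, 0.23 for Tssc4, 0.30 for Kcnq1 and 0.14 for Cdkn1c. Cdkn1c was lower in 4 of 4 pairs, and Tssc4 and Kcnq1 in 3 of 4. Ascl2, Th, Ins2 and Trpm5 had too few counts to be tested. R74862, a transcript on the opposite strand that shares 104 bases of exon with Cd81, was at 0.483 to 1.48 CPM in YFP+ and 1.05 to 3.10 CPM in YFP-. The exons of Cd9, Cd151, Tspan2 and Tspan4 also share bases with a gene on the opposite strand, and the strand setting of the counting is not given in the sources read for this account.

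The promoters of Cd81 and Cd82 are shown because these are the 2 members whose fractions did not overlap. Each is the 250 bases before the outermost RefSeq start of the gene (GRCm38.p6), 5′ to 3′ on the strand of the gene, with GC boxes (GGGCGG on either strand) in capitals. The window of Cd81 is chr7:143052500-143052749 on the plus strand and that of Cd82 is chr2:93462951-93463200 on the minus strand. Most of the Cd82 window lies inside the gene as placed above, whose GENCODE start is further out than the RefSeq start.
Cd81: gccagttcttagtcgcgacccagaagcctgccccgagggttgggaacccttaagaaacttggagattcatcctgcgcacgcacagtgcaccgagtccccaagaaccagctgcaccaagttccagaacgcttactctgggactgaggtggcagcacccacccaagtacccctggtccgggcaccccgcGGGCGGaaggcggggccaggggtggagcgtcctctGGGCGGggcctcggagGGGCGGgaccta
Cd82: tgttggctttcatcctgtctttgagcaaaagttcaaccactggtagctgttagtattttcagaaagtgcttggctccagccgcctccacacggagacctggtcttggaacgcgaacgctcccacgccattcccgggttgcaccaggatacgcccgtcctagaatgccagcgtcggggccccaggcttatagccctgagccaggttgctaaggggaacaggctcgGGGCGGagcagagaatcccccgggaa
Cd81 held 3 GC boxes in 65.6% G and C, with 16 CpG sites. Cd82 held 1 GC box in 58.4% G and C, with 14 CpG sites, and RefSeq lists 4 starts for it. Of the 10 members, all found in the RefSeq table, 6 held a GC box, against 33.0% of 27025 promoters of the same length. The NF-kB consensus, searched on both strands, was in 2 of the 10, Tspan9 and Tspan11, against 7.03% of all promoters, and these letters are not in the windows of Cd81 and Cd82. CCAAT was in 1 of the 10, Tspan3, against 34.5% of all, and TATAAA in none of the 10, against 13.0%. By GENCODE positions the windows of Cd63 and Tspan3 lie wholly inside the gene, and that of Tspan2 mostly so. The counts of motifs therefore do not all describe sequence upstream of the gene.

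Of the 21 other tetraspanins, 17 had enough counts to be tested, and 4 passed in the blocked edgeR fit, where 11.5% of all tested genes did. Tspan15 and Tspan8 fell and Tspan6 and Tspan12 rose. The median log2 fold change of the 17 was -0.05, beside 0.01 over all genes tested.

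Tspan15 is one of the tetraspanins that escort the protease ADAM10 to the cell surface. It had 0.744, 1.60, 0.654 and 0.588 CPM in YFP+, against 4.86, 7.32, 5.002 and 2.83 CPM in YFP-. All YFP+ libraries were below all YFP- libraries, at -2.51 on the log2 scale (SE 0.32, adjusted p by edgeR 3.67e-06). Among the other ADAM10-escorting tetraspanins, Tspan5, the most abundant, had 50.3 ± 10.2 CPM for YFP+ cells and 49.6 ± 5.58 for YFP- cells (n = 4 libraries each, SD). Tspan5, Tspan14 and Tspan17 had log2 fold changes of 0.01, -0.26 and 0.17 and did not pass, with edgeR adjusted p of 0.970, 0.195 and 0.631. Tspan10 was at 0.669 to 1.63 CPM in YFP+ and 0 to 2.34 CPM in YFP- and did not pass either (adjusted p by edgeR 0.701), and Tspan33 was too low to test. Adam10 itself had a log2 fold change of 0.06 (adjusted p by edgeR 0.659).

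Tspan8, known from gut epithelium, had 0.930, 1.23, 1.08 and 0.554 CPM in YFP+, against 1.90, 3.56, 3.67 and 1.41 CPM in YFP-. The groups did not overlap, and the log2 fold change was -1.42 (SE 0.40, adjusted p by edgeR 0.0200), on 16 to 85 counts per library. The call was lost without the block (adjusted p by edgeR 0.0694) and without the pair numbered 2 or 3. A list of epithelial marker genes was also lower in YFP+, with a sum of 25.6 to 29.8 CPM in YFP+ and 53.1 to 107 CPM in YFP-, and so was a list of enteric glia genes, with 9.15 to 11.8 CPM in YFP+ and 126 to 201 CPM in YFP-. Their part in the values of Tspan8 and Tspan15, and of Itgb4 and Itga6 described further on, was not tested.

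Tspan6 and Tspan12 rose by less. Tspan12, a co-receptor for Norrin signalling through Frizzled proteins, had 17.4, 20.9, 22.8 and 18.1 CPM in YFP+, against 13.1, 16.2, 16.7 and 15.1 CPM in YFP-. Its log2 fold change was 0.37 (SE 0.11, adjusted p by edgeR 0.0336). Tspan6 had 10.1, 13.3, 11.7 and 10.6 CPM in YFP+, against 7.02, 9.33, 8.93 and 6.88 CPM in YFP-, or 0.51 as a log2 ratio (SE 0.15, adjusted p by edgeR 0.0296). Neither gene's groups overlapped. Both lost the call without the block, with edgeR adjusted p of 0.124 for Tspan6 and 0.149 for Tspan12, and both lost it when any 1 of the 4 pairs was left out. Tspan12 also lost it with DESeq2 (adjusted p = 0.0649). Tspan15 was the 1 of the 4 that passed under every alternative tried.

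The remaining family members had no call. Tspan31 and Tspan18, the most abundant after Tspan5, had log2 fold changes of 0.02 and 0.07 (edgeR adjusted p = 0.943 and 0.776). Tspan31 shares 641 exonic bases with Cdk4 on the opposite strand. Tspan7 had 1.52 to 2.62 CPM in YFP+ and 2.98 to 4.67 CPM in YFP-, without overlap, and did not pass (log2 fold change -0.66, edgeR adjusted p = 0.183). Cd37 and Cd53, tetraspanins of blood cells, averaged 1.58 ± 0.504 and 0.521 ± 0.426 CPM in YFP+ and 1.44 ± 0.238 and 1.03 ± 0.837 CPM in YFP- (n = 4 libraries each, SD). Prph2, a tetraspanin of photoreceptors, was listed at 0 in all 8 libraries.

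**Figure D3:**
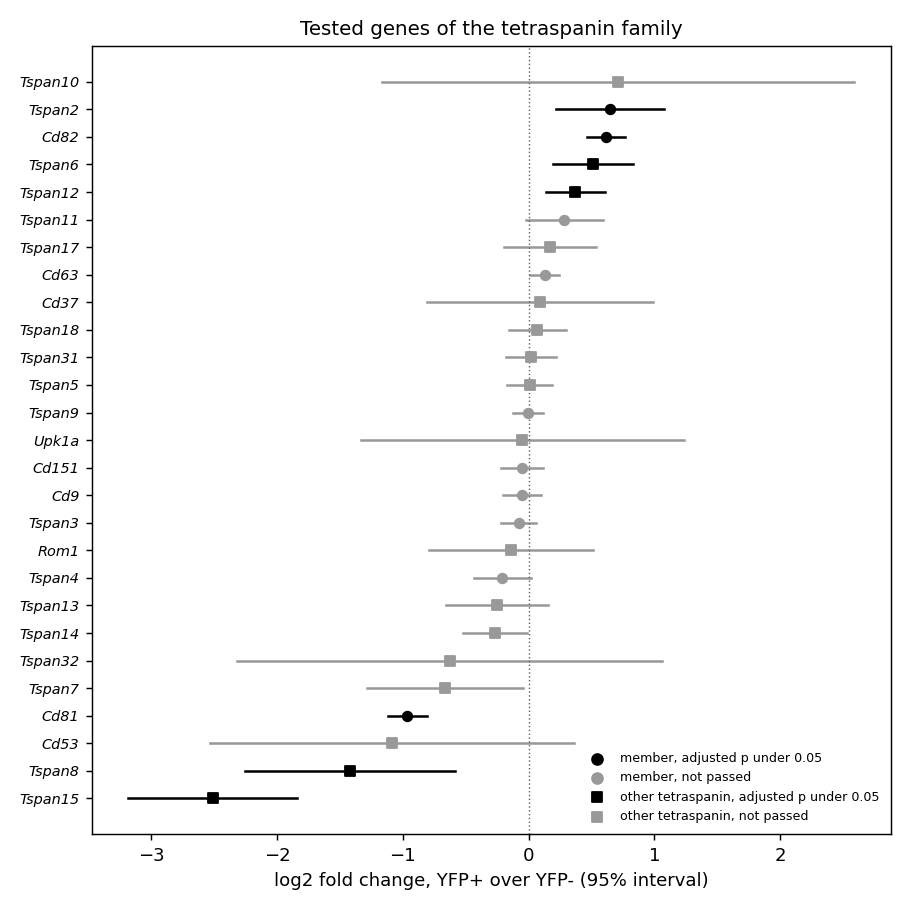
Log2 fold change of YFP+ over YFP- for the 27 tetraspanin genes that could be tested, with 95% intervals that are not adjusted for the number of genes. Circles are the 10 members and squares the 17 others, and black marks an edgeR adjusted p under 0.05. Tspan15 is at -2.51, Cd81 at -0.97 and Cd82 at 0.62.

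Proteins known to bind tetraspanins, or to be routed by them, were followed as a list of 21 genes, of which 19 were tested. In the blocked edgeR fit 2 rose and 3 fell, where 3.65% of all tested genes rose and 7.85% fell. The list's median log2 fold change was -0.08, beside 0.01 over all genes tested. The falls were in integrin subunits and a growth factor. Itgb4, the beta subunit of the laminin receptor of epithelial and Schwann cells, had 1.78, 1.52, 0.981 and 0.969 CPM in YFP+, against 7.28, 11.8, 7.72 and 9.20 CPM in YFP-. Its log2 fold change was -2.79 (SE 0.26, adjusted p by edgeR 2.26e-08). Its alpha partner Itga6 had 3.72, 4.80, 4.64 and 4.57 CPM in YFP+, against 7.68, 14.3, 11.4 and 5.76 CPM in YFP-. Neither gene's groups overlapped, and the log2 fold change of Itga6 was -1.07 (SE 0.21, adjusted p by edgeR 0.000708). Hbegf, whose membrane-bound precursor binds CD9, had 8.03, 6.86, 8.67 and 7.47 CPM in YFP+, against 17.0, 15.7, 16.3 and 21.4 CPM in YFP-, or -1.18 as a log2 ratio (SE 0.14, adjusted p by edgeR 1.41e-06).

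The rises among the partners were small. Itgb1, the common beta integrin subunit, averaged 685 ± 22.4 CPM for YFP+ cells and 602 ± 31.4 for YFP- cells (n = 4 libraries each, SD), or 0.19 as a log2 ratio (SE 0.05, adjusted p by edgeR 0.0113). Mmp14, a membrane-bound metalloprotease, averaged 497 ± 19.3 CPM for YFP+ cells and 442 ± 13.5 for YFP- cells, or 0.17 as a log2 ratio (SE 0.05, adjusted p by edgeR 0.0197). Both calls were lost without the block, at edgeR adjusted p of 0.238 and 0.272, and without the pair numbered 1 or 3. The direct partners of CD9 and CD81 in the immunoglobulin family, Ptgfrn and Igsf8, had log2 fold changes of -0.08 and -0.02 and did not pass (edgeR adjusted p = 0.422 and 0.908). Epcam, on this list and also an epithelial marker, had a log2 fold change of -2.59 and did not pass (adjusted p by edgeR 0.0539). Its groups did not overlap. Some alternatives called it as lower, among them DESeq2 (adjusted p = 1.35e-05), limma-voom (adjusted p = 0.000796) and no block (adjusted p by edgeR 0.0172).

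Genes of endosomes and released vesicles, where CD63, CD81 and CD9 proteins are found, were a list of 18. Of the 16 tested, 1 passed, where 11.5% of all tested genes did. It was Sdcbp, whose product syntenin links syndecans to vesicle formation. Sdcbp had 108, 109, 116 and 128 CPM in YFP+, against 121, 126, 122 and 155 CPM in YFP-, or -0.18 as a log2 ratio (SE 0.06, adjusted p by edgeR 0.0468). The groups overlapped. The call was lost without the block (adjusted p by edgeR 0.370), with DESeq2 (adjusted p = 0.0889), under other scalings and with no filter on low counts, and when any 1 of the 4 pairs was left out. The median log2 fold change of the 16 was -0.01, beside 0.01 over all genes tested. Hgs and Smpd3 were listed at 0 in all libraries, and Hgs is annotated as 2 genes on the same exons.

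Fibroblast genes of the crypt base other than Cd81 were a list of 13, all tested. In the blocked edgeR fit 8 fell and 1 rose, where 7.85% of all tested genes fell and 3.65% rose. The list's median log2 fold change was -0.61, beside 0.01 over all genes tested. Earlier results of these data had already shown several of these genes to be lower, so the count is not independent evidence of a direction. Ackr4, an atypical chemokine receptor, had 67.9, 59.7, 49.8 and 71.5 CPM in YFP+, against 114, 84.1, 97.1 and 120 CPM in YFP-. Its log2 fold change was -0.74 (SE 0.07, adjusted p by edgeR 3.95e-08). Ackr4 shares 479 exonic bases with Acad11 on the opposite strand. Dkk2, a secreted Wnt modulator, averaged 76.8 ± 6.05 CPM for YFP+ cells and 125 ± 25.6 for YFP- cells (n = 4 libraries each, SD), or -0.68 as a log2 ratio (adjusted p by edgeR 8.88e-08). C3, the central complement component, had a log2 fold change of -0.49 (adjusted p by edgeR 2.67e-08). Dkk3 was the gene that rose, at 0.33 (adjusted p by edgeR 7.92e-05). The log2 fold change of Cd81, at -0.97, was larger in size than that of each of the 13. Its interval, from -1.12 to -0.81, overlapped those of several of them, among them Ackr4 (-0.89 to -0.59). Cd81 had chosen the family because it differed between these fractions, so nothing is read from its place above the 13.

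**Figure D4:**
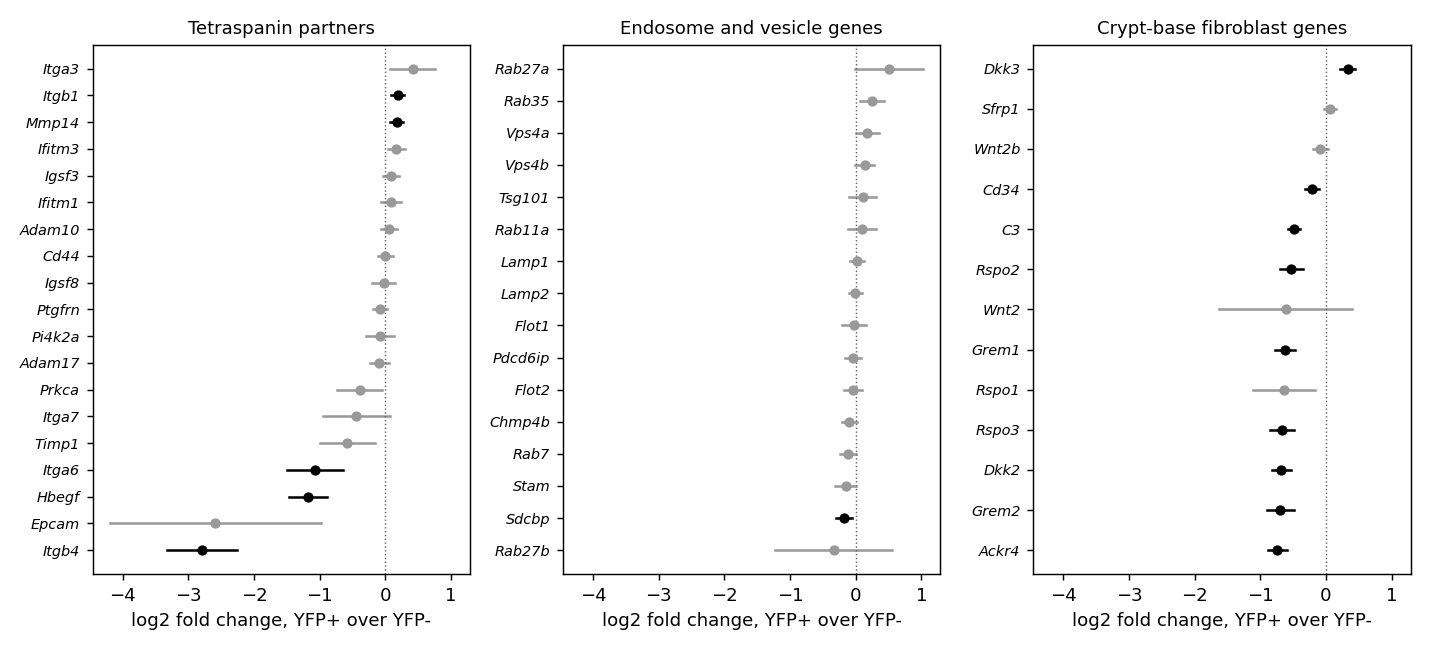
Log2 fold change of YFP+ over YFP- for each tested gene of the partner, endosome and vesicle, and crypt-base lists, with 95% intervals that are not adjusted for the number of genes. Black marks an edgeR adjusted p under 0.05. The crypt-base genes lie mostly left of 0, with Ackr4 at -0.74 and Dkk3 at 0.33, and the vesicle genes lie around 0.

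The genes whose pattern over the 8 libraries was most like that of Cd81 were Kcna2, Plce1, Sort1, Cdh4 and Ggta1. Pearson's r of log2 CPM with Cd81 was 1.00, 0.99, 0.99, 0.99 and 0.98, out of 8670 ranked genes that averaged 10 CPM or more. The 10 members were left out of this ranking, as were predicted genes, pseudogenes, antisense genes and genes without a symbol. The libraries fall into the 2 fractions for Cd81, so these values mainly restate a difference between fractions and carry no test. Kcna2, a voltage-gated potassium channel, had 1.08, 3.12, 1.24 and 1.28 CPM in YFP+, against 35.05, 58.9, 35.3 and 38.6 CPM in YFP-. Like Cd81, Kcna2 was highest in replicate 2 of both fractions. Pearson's r takes no account of size, and the log2 fold change was -4.70 for Kcna2 beside -0.97 for Cd81. Plce1, a phospholipase C, had 51.4, 60.8, 45.2 and 48.2 CPM in YFP+, against 134, 162, 129 and 131 CPM in YFP-. The most opposite patterns were those of Map3k20, Fgfr2 and Col6a5, with r of -0.99, -0.98 and -0.98. Fgfr2, a fibroblast growth factor receptor, was at 818 to 861 CPM in YFP+ and 587 to 649 CPM in YFP-.

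The sorted cells had the RNA of fibroblasts and also that of other cells. Pdgfra, Col1a1 and Dcn were present in all libraries, Pdgfra at 876 to 1182 CPM in YFP+ and 1005 to 1100 CPM in YFP-. Rgs5, a defining mural marker, was at 871 to 1083 CPM in YFP+ and 841 to 1040 CPM in YFP-. Of 8 fibroblast genes 1 rose and 5 fell in the blocked edgeR fit, where 3.65% of all tested genes rose and 7.85% fell. Without the block 2 of the 8 were called, where 4.26% of all tested genes were. Markers of other cells moved with the fractions, and their part in the values of the 10 members was not tested. Of 10 enteric glia genes 9 fell, and of 16 tested epithelial genes 7 fell, with the sums given beside Tspan8. Of 9 smooth muscle genes 7 rose, with a sum of 553 to 1012 CPM in YFP+ and 362 to 599.9 CPM in YFP-, and without the block 2 of the 9 were called. Of 6 tested mural genes 1 rose and 1 fell, with a sum of 1201 to 1415 CPM in YFP+ and 1074 to 1247 CPM in YFP-. Of 9 tested endothelial genes 3 fell, with a sum of 49.4 to 58.5 CPM in YFP+ and 67.2 to 100.1 CPM in YFP-. Of 5 tested neuronal genes 2 fell, with a sum of 6.51 to 9.41 CPM in YFP+ and 6.38 to 23.5 CPM in YFP-. Among 3 genes marking interstitial cells of Cajal 1 rose, Etv1. The 3 summed to 42.9 to 48.8 CPM in YFP+ and 29.3 to 49.6 CPM in YFP-. Most of that sum was Etv1, at a mean of 42.95 CPM in YFP+ and 34.7 in YFP-. The defining markers Kit and Ano1 had log2 fold changes of -1.52 and -0.50 and did not pass (edgeR adjusted p = 0.164 and 0.558). Kit passed as lower with limma-voom (adjusted p = 0.0491) and without the pair numbered 4 (adjusted p by edgeR 0.0387). Without the block 9 glial, 5 epithelial, 2 mural, 1 endothelial, 1 neuronal and 0 Cajal cell genes were called. No defining marker of these lists was at 0 in all libraries. Of 8 tested blood cell genes and 2 tested mesothelial genes, 0 passed by edgeR, DESeq2 or limma-voom. Of the same genes 0 had an unadjusted edgeR p under 0.05, but how many of all tested genes did was not counted. The blood cell genes summed to 47.0 to 333 CPM in YFP+ and 81.8 to 291 CPM in YFP-, and the mesothelial genes to 0.491 to 1.52 CPM in YFP+ and 1.501 to 3.02 CPM in YFP-. All 7 tested mitochondrially encoded genes fell. The 13 listed summed to 3170 to 3868 CPM in YFP+ and 4493 to 5810 CPM in YFP-. Of the 13, 5 were at 0 in all libraries (mt-Nd4l, mt-Co2, mt-Co3, mt-Atp6 and mt-Atp8), so the sum does not cover all mitochondrial RNA.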

How the data were processed

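RNA of 8 sorted libraries was sequenced on a NextSeq from a stranded total RNA kit, per the labels' protocols. Reads were trimmed with cutadapt 3.4, aligned with STAR 2.7.3a to GRCm38/mm10 and counted with featureCounts 2.0.1, per the submitters' processing notes. The authors deposited whole-number counts per gene. The 8 normalised per-sample columns of the same table were not used, and the authors' fold changes on a log2 scale and p-values were read for comparison only.

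Counts were fitted with edgeR 4.0.16 (R 4.3.3): filterByExpr, TMM scaling, a quasi-likelihood test with terms for replicate number and fraction, and Benjamini-Hochberg adjustment over 16354 genes at 0.05. The standard error is the log2 fold change divided by the root of F, and intervals are at 95%. CPM is counts per 1000000 of the library total over all genes after TMM scaling, with scaling factors of 1.0085 to 1.0403 in YFP+ and 0.9623 to 1.0007 in YFP- libraries. No label says what equal replicate numbers share. The rule that set the members already took equal numbers as pairs. Over 5250 genes, deviations of libraries with the same number correlated at 0.38 to 0.64. The authors' deposited log2 fold changes differed by at most 5e-04 from those of DESeq2 with the block. DESeq2 1.42.0, limma-voom (limma 3.58.1), other scalings, other filters, no block and leaving out each pair were the alternatives. On simulated data 8.88% of the calls were false, which is above the nominal threshold of 0.05. Planted log2 changes of -1 and 1 were recovered in 71.4% and 62% of genes. Those of -2 and 2 were recovered in 90.7% and 98%.

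Gene positions and lengths come from GENCODE annotation of GRCm38, which matched 53706 of 53801 identifiers. Promoters come from RefSeq. The members and lists were chosen with earlier results of these data known. Named genes are the 10 members, and each called gene and the 3 most abundant uncalled genes of the other tetraspanins. They include up to 3 called genes per direction of each related list by smallest p, and the defining markers. Added to these are the 5 genes most like and 3 least like Cd81 among the ranked genes that averaged 10 CPM or more. The last are the 4 nearest protein-coding genes on each side of Cd81. Other genes in the text were chosen after their values were seen.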

Additional observations from a re-analysis of the deposited data

Results flagged for a closer look

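In 36 sets of 4 libraries, each a gene in 1 fraction, the highest and lowest libraries were compared with the rest of their set. In 2 sets 1 library lay far from the other 3, and chance gives about 1 such set in 20. Cd81 was at 45.9 CPM in YFP+ replicate 2, above the 36.0 to 36.6 CPM of the other YFP+ libraries and below all YFP- libraries. Tspan15 was at 1.60 CPM in the same library, above the 0.588 to 0.744 CPM of the other YFP+ libraries and below all YFP- libraries. Without the pair numbered 2 the log2 fold change was -1.01 for Cd81 and -2.62 for Tspan15.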

How the results depend on the processing

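Under 12 alternatives the log2 fold change of Cd81 stayed between -1.01 and -0.93 and that of Cd82 between 0.60 and 0.66. That of Tspan2 lay between 0.48 and 0.81. Without the replicate block, which treats equal numbers as pairs, 697 genes were called in all, against 1880 with it, along with 1 of the other tetraspanins, and 0 of the endosome and vesicle genes. With the block, 2 of the 16 endosome and vesicle genes had an unadjusted edgeR p under 0.05. The share of all tested genes under that limit was not counted, so nothing is read from this number. Leaving out 1 pair at a time gave 1182 to 1581 genes called in all, 1 to 2 other tetraspanins, 3 to 7 partners and 0 endosome and vesicle genes, with fewer libraries in each fit. The lowest total and the lowest count of partners came without the pair numbered 3. The endosome and vesicle count was also 0 under relative log expression scaling, upper-quartile scaling, no filter, DESeq2 and without mitochondrial and ribosomal RNA genes. The cause was not tested. Among 74 named genes tested, 17 lost a call and 4 gained one under at least 1 alternative, and 9 changed sign, with no call in the fits of either sign. Tspan9 became 0.0019 under relative log expression scaling, 0.0026 under upper-quartile scaling, 0.0054 with no filter, 0.0052 with DESeq2 and 0.006 without mitochondrial and ribosomal RNA genes, as log2 fold changes. Tspan5 became -0.0003 with a minimum of 1 CPM in 4 libraries, and Nos1, a neuronal marker, -0.0029 without the replicate block. Leaving out 1 pair at a time gave -0.0355 to 0.0348 for Tspan9, -0.0864 to 0.106 for Tspan5, -0.0168 to 0.0972 for Tspan31, -0.0348 to 0.169 for Tspan18, -0.0716 to 0.0219 for the log2 fold change of Pdgfra, -0.047 to 0.465 for Nos1, -1.3 to 0.313 for Ret, -1.27 to 0.313 for Upk3b and -0.494 to 0.125 for Jchain. Among the called tetraspanins, Tspan2 rests on 89 to 296 counts per library, Tspan8 on 16 to 85 and Tspan15 on 17 to 175, which limits their precision.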
